A study of Mus musculus with 24 samples.

Results

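Macrophages lacking the receptor GPR35 were compared with wild-type macrophages while both were responding to bacterial lipopolysaccharide (LPS). The comparison set 4 libraries from GPR35-deficient (KO) cells against 4 from wild-type (WT) cells, 8 of the 24 libraries of the series. It covered all 11590 genes of the deposited table of counts. The spread of each gene was estimated from all 24 libraries in a single model. The macrophages were grown from the bone marrow of male C57BL/6 mice with the growth factor M-CSF for 7 days and were then given LPS at 10 ng/mL for 4 h. The other 16 libraries, 4 per group, came from untreated cells and from cells given lysophosphatidic acid (LPA) at 10 µM for 4 h, in each genotype. The labels give the genotypes only as WT and KO. They give no allele, no littermate status and no statement that replicates came from separate animals, so p-values measure the spread between these libraries, which may be technical.

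LPS is sensed by Toll-like receptor 4, which signals through the adaptors MyD88 and TRIF to NF-kB, MAP kinases and interferon regulatory factors. Macrophages answer within hours with inflammatory cytokines, chemokines and interferon-stimulated genes, together with feedback inhibitors. GPR35 is a G protein-coupled receptor found on gut and myeloid cells, for which kynurenic acid, the chemokine CXCL17 and lysophosphatidic acid have each been proposed as ligands. Its best described couplings are to inhibitory G proteins, to G13 and to beta-arrestins.

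The 4 WT libraries with LPS held 35254531 to 36737497 counts and, per the labels, were read on 2 lanes. The 4 KO libraries held 15167683 to 18204622 counts and were read on 1 lane. Lane number and depth therefore go with the genotype and cannot be told apart from it, and the number of 3 fits on counts thinned to the smallest library that called a gene is given where it was below 3. On the first principal component of the 8 LPS libraries (27.6% of the variance) the WT libraries lay between -9.94 and -1.40, and KO replicate 2, at -21.4, lay on the far side of them from the other KO libraries, at 5.86 to 22.2. The second component (21.4%) held the WT libraries at 2.10 to 18.7 and the KO libraries at -16.7 to -1.59. Macrophage identity genes were alike in sum, at 60869 to 62852 CPM (counts per 1000000 counts of a library, scaled by TMM, a method that corrects library size for composition) in WT and 59091 to 62795 in KO. The Y-linked genes Ddx3y, Eif2s3y, Kdm5d and Uty were expressed in all 8 libraries and none was called, while Xist and Tsix were not analysed here.

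After LPS, few reads fell on Gpr35 itself (chromosome 1, 92948052 to 92986391, GRCm38.p6). The 4 WT libraries held 11, 8, 17 and 10 counts, which is 0.385, 0.296, 0.636 and 0.352 CPM. All 4 KO libraries held 0 counts. Against a floor of 3 counts over the KO group (0.0437 CPM on library totals), the KO level was at least 7.27-fold lower. In untreated cells the level was 2.60 ± 0.214 CPM in WT and 0.133 ± 0.0710 CPM in KO (mean ± SD, n = 4). The WT level with LPS, a mean of 0.417 CPM, lay below every untreated WT library. Of the 29 other measured genes within 2 Mb of Gpr35 none was called, and their log2 differences lay between -0.38 and 0.43.

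The differences called between genotypes under LPS were mostly small. In edgeR's quasi-likelihood test with Benjamini-Hochberg adjustment over all genes, 330 of 11590 genes (2.85%) were called at an adjusted p below 0.05, 80 higher in KO (0.690%) and 250 lower (2.16%). The median size of a called difference was 0.31 on the log2 scale. Only 7 called genes (0.0604%) differed by at least 2-fold and 41 (0.354%) by at least 1.5-fold. The 95% interval of the difference lay within 2-fold for 10761 genes (92.8%) and within 1.5-fold for 9227 (79.6%). The called genes that were lower in KO were well expressed, with a median of 111 CPM, against 17.8 CPM for those that were higher and 23.6 CPM for all genes.

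The number of these calls and their balance changed with single libraries and with the scaling. In 268 of the 330 called genes (2.31% of all genes) the 4 KO libraries lay outside the range of the 4 WT libraries, and 1110 genes (9.58%) did so at any p. Scaling by library totals alone, without the composition correction, called 487 genes of which 78.2% were higher in KO, against 24.2% with TMM. It moved the median of all genes from -0.01 to 0.08 and shared 186 called genes with the TMM fit. A fit of only these 8 libraries called 131 genes, of which 85 were among the 330. After thinning every library to 15167683 counts, 249, 212 and 209 genes were called in 3 draws, and 145 genes (22 higher, 123 lower) were called in all 3. Leaving out WT replicate 3 left 65 calls and leaving out KO replicate 3 left 74. Leaving out WT replicate 2 left 160, leaving out KO replicate 4 left 190, and leaving out WT replicate 1 raised the count to 577. WT replicate 3 was the highest WT library in 189 of the 250 genes called lower, against 28.3% of all genes, and KO replicate 3 was the lowest KO library in 141 of them, against 22.2% of all genes. A group of 39 genes, 7 higher and 32 lower in KO, was called in each of 18 settings (the fit as described, another tool, 2 other scalings, 2 other filters, 3 thinned draws, a fit of only these 8 libraries and 8 left-out libraries). These 39 are called stable calls in what follows, and for other called genes the left-out library that gave the highest adjusted p is named with its p. Such a gene may have lost its call without other libraries too. Of the 330 genes, 53 were called in all 8 fits with a library left out. A term for the replicate number, fitted to these 8 libraries alone with 3 residual degrees of freedom, left no call at all. Same-numbered WT and KO libraries with LPS did not deviate together (correlations of -0.19 to -0.00).

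**Figure D1:**
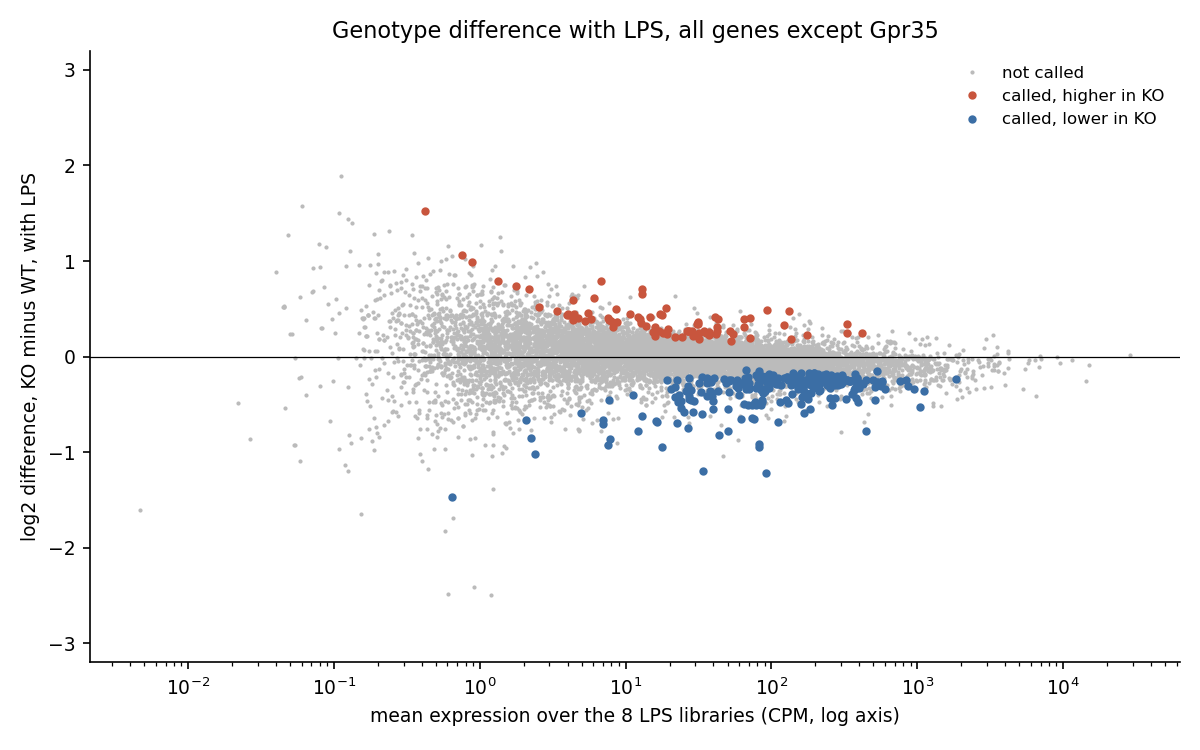
Log2 difference, KO minus WT with LPS, against the mean expression over the 8 LPS libraries in CPM (log axis) for each gene except Gpr35. Red points are the genes called higher in KO, blue points those called lower and grey points genes not called; most called genes sit close to 0, with a median size of 0.31.

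**Figure D2:**
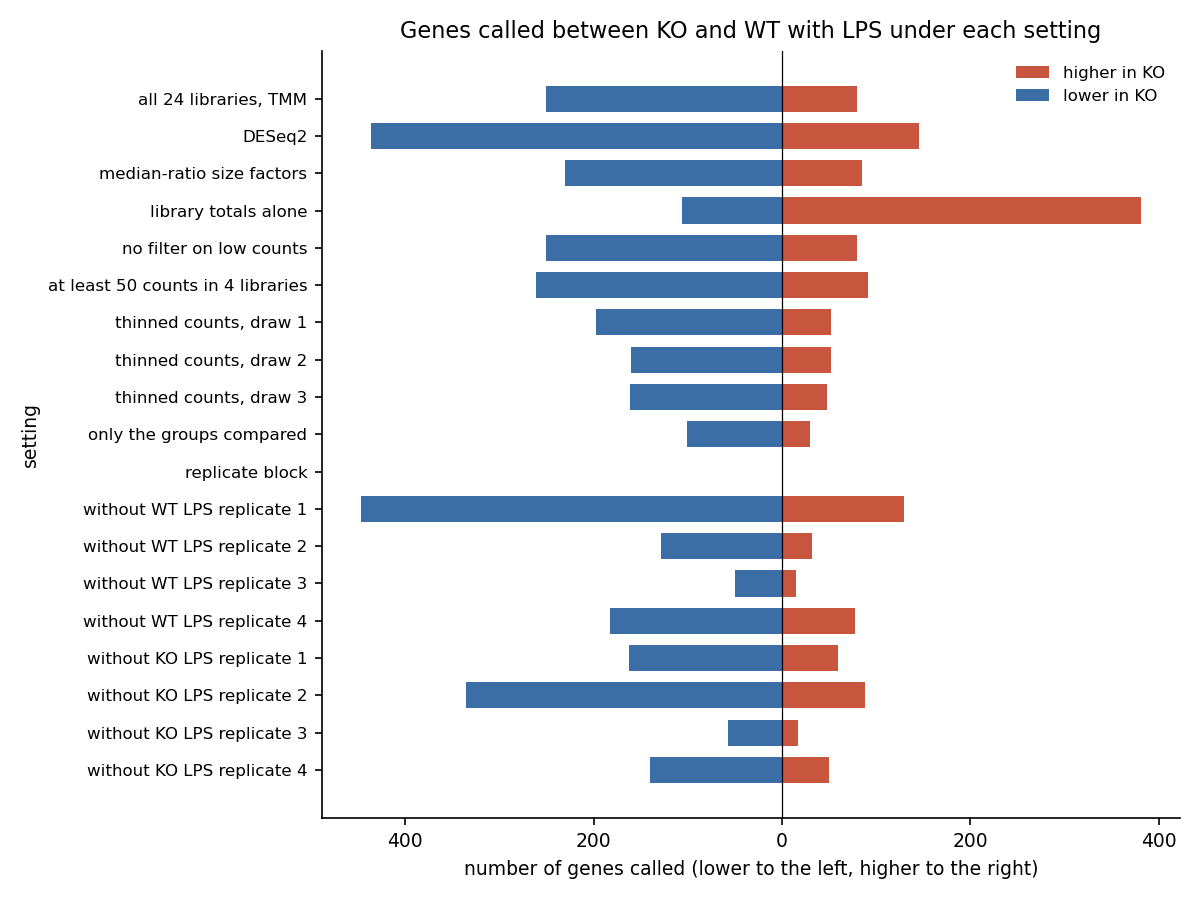
Number of genes called under each setting, with those lower in KO drawn to the left and those higher to the right. The count falls from 330 to 65 without WT replicate 3 and rises to 577 without WT replicate 1. It is 0 with a term for the replicate number, fitted to the compared libraries alone. The balance turns from mostly lower to mostly higher when library totals alone are used.

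The largest called fall with at least 2 CPM was in Lipg, which encodes endothelial lipase, a secreted phospholipase acting on high-density lipoproteins. Its levels were 105, 141, 165 and 103 CPM in WT and 65.3, 54.8, 51.6 and 48.7 CPM in KO. All KO libraries lay below all WT libraries, and the log2 difference was -1.22 ± 0.17 (± SE, adjusted p = 9.9e-04). Lipg was near silent without LPS, at 0.623 ± 0.113 CPM in WT and 0.534 ± 0.256 CPM in KO, so that the transcript was induced in both genotypes and reached a lower level in KO. It was one of the stable calls, and its log2 difference stayed between -1.31 and -1.07 over all alternatives.

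Slc28a2 and Slc28a2b, adjacent genes for concentrative nucleoside transporters on chromosome 2, were also lower in KO. Slc28a2 stood at 454, 545, 719 and 534 CPM in WT and 330, 359, 291 and 330 CPM in KO, a log2 difference of -0.78 ± 0.11 (adjusted p = 5.4e-04). Slc28a2b stood at 46.4, 54.9, 71.0 and 52.7 CPM in WT and 33.2, 33.8, 27.2 and 33.0 CPM in KO, a log2 difference of -0.82 ± 0.11 (adjusted p = 3.3e-04). The groups did not overlap for either gene. The coding transcripts of the pair share 1478 stretches of 51 bases, the read length, which is 37.5% of those in Slc28a2 and 40.1% of those in Slc28a2b. How reads fitting both genes were counted is not given in the sources used here, and the Slc28a2b count was 9.35 to 10.2 per 100 Slc28a2 counts in the 8 LPS libraries. Whether Slc28a2b reads are its own cannot be told apart from the counts, and its value is uncertain. Both were called in all 18 settings.

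Sema4c, which encodes a transmembrane class 4 semaphorin that binds plexins, shared the smallest adjusted p of the comparison with Peg13 and Dcakd. It stood at 72.4, 61.6, 69.8 and 51.4 CPM in WT and 43.4, 31.9, 35.9 and 37.4 CPM in KO. The groups lay apart, with a log2 difference of -0.78 ± 0.09 (adjusted p = 8.3e-05). Without LPS it stood at 8.49 ± 0.310 CPM in WT and 7.68 ± 0.678 CPM in KO.

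The promoters of these 3 genes are shown because the first pair moved together and the third shared the smallest adjusted p with Dcakd among the falls. Each runs 5′ to 3′ along the gene's strand from 250 bases before to 50 bases after a RefSeq start (GRCm38.p6), at chr2:122426185-122426484 (plus strand), chr2:122484691-122484990 (plus strand) and chr1:36558332-36558631 (minus strand, 1 of 2 starts). Capitals mark matches on either strand to a kappaB-like pattern, GGGNNNNNCC, or to an interferon response core, GAAANNGAAA.
Slc28a2: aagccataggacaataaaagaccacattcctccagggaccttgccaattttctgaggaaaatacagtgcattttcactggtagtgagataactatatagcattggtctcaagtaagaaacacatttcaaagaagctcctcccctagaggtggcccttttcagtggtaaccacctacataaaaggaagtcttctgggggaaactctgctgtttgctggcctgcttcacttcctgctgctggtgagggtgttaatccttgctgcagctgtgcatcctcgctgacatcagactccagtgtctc
Slc28a2b: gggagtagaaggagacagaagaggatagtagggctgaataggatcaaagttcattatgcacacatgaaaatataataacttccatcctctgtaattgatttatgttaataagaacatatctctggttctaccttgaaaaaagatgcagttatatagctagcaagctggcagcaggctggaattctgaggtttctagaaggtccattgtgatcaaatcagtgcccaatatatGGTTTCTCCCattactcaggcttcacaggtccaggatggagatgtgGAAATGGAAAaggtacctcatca
Sema4c: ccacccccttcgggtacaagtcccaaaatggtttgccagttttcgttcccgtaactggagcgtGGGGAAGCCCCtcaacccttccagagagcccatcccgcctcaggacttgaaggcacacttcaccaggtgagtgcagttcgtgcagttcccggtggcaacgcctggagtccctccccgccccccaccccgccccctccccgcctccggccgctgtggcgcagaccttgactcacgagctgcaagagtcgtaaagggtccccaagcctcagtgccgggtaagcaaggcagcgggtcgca
The Slc28a2 window held neither pattern, the Slc28a2b window held 1 match to each, and the Sema4c window held 2 overlapping kappaB-like matches. The Slc28a2 and Slc28a2b windows were 50.3% identical over an alignment of 350 columns. Over genes with a promoter in the table, the kappaB-like pattern occurred for 160 of 204 genes called lower (78.4%), 36 of 61 called higher (59%) and 6572 of 9155 in all (71.8%). The interferon response core occurred for 6.37%, 6.56% and 4.14%, and the cyclic AMP response element TGACGTCA for 5.39%, 3.28% and 3.71%. These are counts of letters in windows of this length, read on both strands over every listed start of a gene.

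Itpr1, Edn1 and Prokr1 were among the other large falls. Itpr1, the type 1 inositol trisphosphate receptor that releases calcium from the endoplasmic reticulum, stood at 75.9, 116, 124 and 114 CPM in WT and 53.9, 53.9, 51.4 and 69.9 CPM in KO. The groups did not overlap, and the log2 difference was -0.91 ± 0.16 (adjusted p = 0.00398). Edn1, which encodes the vasoconstrictor endothelin-1, stood at 19.9, 22.9, 33.6 and 17.3 CPM in WT and 15.3, 15.6, 10.5 and 6.83 CPM in KO (log2 difference -0.95 ± 0.25, adjusted p = 0.0407). Without WT replicate 3 the adjusted p of Edn1 was 0.204. Prokr1, a G protein-coupled receptor for prokineticins, stood at 2.98, 3.37, 4.26 and 2.25 CPM in WT and 1.26, 2.12, 1.32 and 1.65 CPM in KO (log2 difference -1.02 ± 0.22, adjusted p = 0.0167). It too lost its call without WT replicate 3, at an adjusted p of 0.0901.

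Cdt1, Irf2bpl and Nes fell as well. Cdt1, which licenses DNA replication origins, was tightly grouped in KO at 5.30, 5.58, 5.82 and 5.49 CPM, below 7.25, 10.2, 13.4 and 9.54 CPM in WT (log2 difference -0.86 ± 0.15, adjusted p = 0.0027). Irf2bpl, of the interferon regulatory factor 2-binding protein family, stood at 9.07, 9.80, 11.6 and 9.29 CPM in WT and 4.60, 5.16, 4.92 and 6.20 CPM in KO (log2 difference -0.93 ± 0.17, adjusted p = 0.00398). Both were stable calls. Nes, which encodes the intermediate filament protein nestin, fell by 1.20 ± 0.28 on the log2 scale (adjusted p = 0.0248), with 37.0 to 61.8 CPM in WT and 16.6 to 24.6 CPM in KO, and its adjusted p was 0.117 without WT replicate 3. Ifit1bl1, of the interferon-induced IFIT family, and Bbs10, a chaperonin-like protein that helps to assemble the ciliary BBSome, had log2 differences of -0.95 and -0.85 with groups that overlapped. Their highest adjusted p was 0.105 without WT replicate 3 and 0.0854 without KO replicate 3, and Ifit1bl1 shares 6.04% of its 51-base stretches with Ifit1bl2.

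Among called genes with at least 2 CPM, the 12 largest rises in KO ran from 0.48 to 0.79 on the log2 scale. Peg13, an imprinted non-coding RNA, stood at 10.4, 9.91, 9.57 and 10.6 CPM in WT and 15.3, 15.1, 17.5 and 15.9 CPM in KO. The replicates of each group were close and the groups lay apart, with a log2 difference of 0.65 ± 0.08 (adjusted p = 8.3e-05). Peg13 lies within the span of Trappc9 (chromosome 15, 72589620 to 73061238), whose log2 difference was -0.02 ± 0.08. The sources used here give no strand setting or rule for overlapping genes, so reads of Peg13 and Trappc9 cannot be told apart with certainty and the Peg13 value is uncertain. Arrb1, which encodes beta-arrestin 1, an adaptor that uncouples and internalises G protein-coupled receptors, stood at 123, 107, 91.0 and 116 CPM in WT and 140, 143, 156 and 171 CPM in KO (log2 difference 0.48 ± 0.08, adjusted p = 0.0027). In both genes the LPS levels lay below the untreated ones, which were 26.7 and 28.8 CPM for Peg13 and 310 and 321 CPM for Arrb1 in WT and KO.

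**Figure D3:**
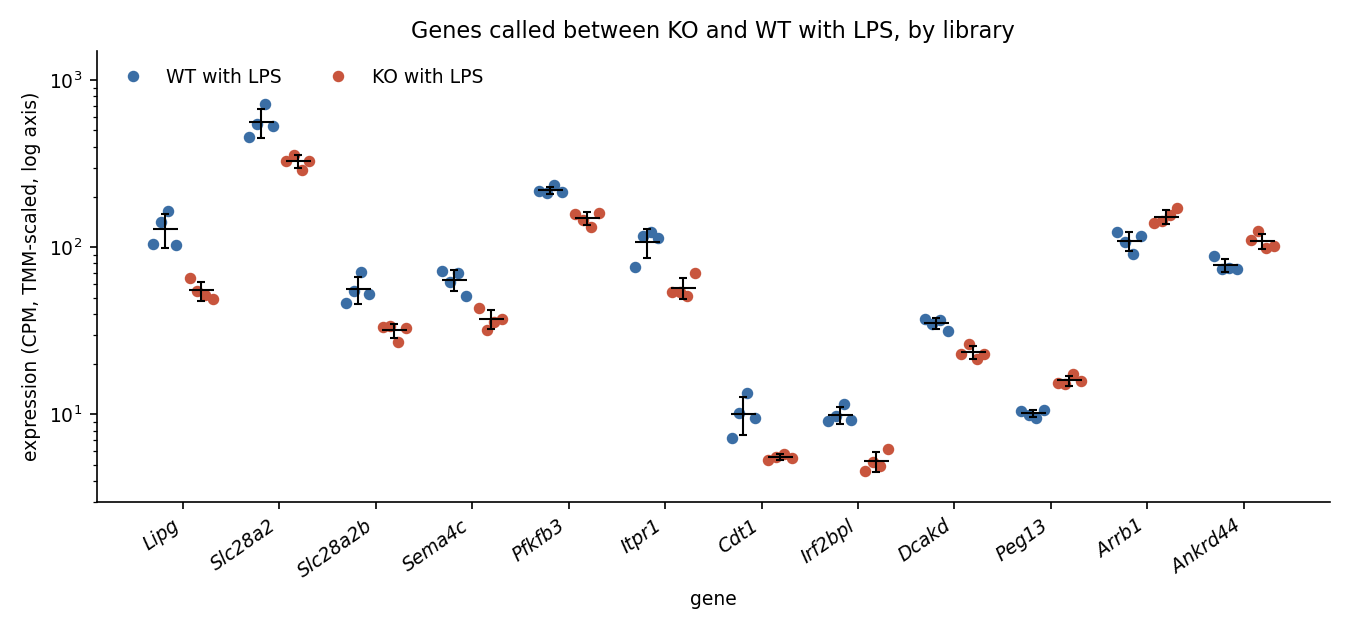
Expression in CPM (log axis) of 12 called genes in each of the 4 WT (blue) and 4 KO (red) libraries with LPS, points in replicate order, with the mean and SD as bars. The 4 KO points lie outside the range of the 4 WT points for each gene shown.

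The largest called rise with at least 2 CPM was in Sh3pxd2a, which encodes TKS5, a scaffold of podosomes. It stood at 6.83, 4.81, 3.36 and 4.72 CPM in WT and 7.88, 7.07, 9.01 and 10.4 CPM in KO (log2 difference 0.79 ± 0.19, adjusted p = 0.0256, and 0.111 without WT replicate 3). Ptger2, the EP2 receptor for prostaglandin E2, stood at 1.33, 1.55, 2.02 and 1.69 CPM in WT and 2.72, 2.19, 3.54 and 2.28 CPM in KO (log2 difference 0.71 ± 0.18, adjusted p = 0.0407). The groups did not overlap, yet its call was lost in 10 of 18 alternatives, with an adjusted p of 0.193 without KO replicate 3, and 1 of 3 thinned draws called it. Ankrd44, an ankyrin repeat subunit of a protein phosphatase 6 complex, stood at 88.2, 73.7, 75.2 and 74.2 CPM in WT and 110, 125, 99.5 and 102 CPM in KO (log2 difference 0.49 ± 0.11, adjusted p = 0.0179, and 0.0794 without WT replicate 3). The rest of the 12 largest called rises were Mturn (0.71), Taf9b (0.61), Eef2k (0.59), Nup43 (0.52), Aph1b (0.51), Nuak1 (0.50) and Rttn (0.48). Their adjusted p lay between 0.012 and 0.05, and Nup43, Aph1b and Nuak1 had overlapping groups. Each of these 7 lost its call without at least 1 library, with adjusted p of 0.179, 0.12, 0.164 and 0.101 for Mturn, Taf9b, Eef2k and Nuak1 without WT replicate 3, 0.177 for Nup43 without KO replicate 4, 0.0641 for Aph1b without KO replicate 3 and 0.131 for Rttn without WT replicate 2. With single libraries left out, Rttn was called in 0 of 8 fits, Eef2k in 1 and Nup43 in 2. Mturn and Taf9b were called in 3, Nuak1 in 4 and Aph1b in 7. Mturn, Nup43 and Rttn were called in 0 of 3 thinned draws, Taf9b, Eef2k and Nuak1 in 1 and Aph1b in 3.

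The remaining stable rises were in Galc, Slc9a9, Mmgt1, Tbc1d8b and Dock1. Galc, the lysosomal galactosylceramidase, stood at 58.4, 60.9, 60.2 and 67.0 CPM in WT and 77.1, 80.4, 83.2 and 85.1 CPM in KO (log2 difference 0.40 ± 0.08, adjusted p = 0.00822). Slc9a9, an endosomal sodium and proton exchanger, stood at 50.1, 57.8, 57.7 and 58.5 CPM in WT and 74.1, 74.8, 77.0 and 66.5 CPM in KO (log2 difference 0.39 ± 0.06, adjusted p = 0.00171). Mmgt1, a subunit of the endoplasmic reticulum membrane complex, Tbc1d8b, of the TBC family of Rab regulators, and Dock1, which activates Rac, had log2 differences of 0.41, 0.45 and 0.34. Together with Peg13 and Arrb1 these make up the 7 stable rises, which were singled out after their values were seen.

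Stable falls outside the largest 12 included Dcakd, Slc8b1 and Sptlc2, likewise singled out after their values were seen. Dcakd, a protein with a dephospho-coenzyme A kinase domain, stood at 31.7 to 37.1 CPM in WT and 21.5 to 26.4 CPM in KO (log2 difference -0.58 ± 0.07, adjusted p = 8.3e-05). Slc8b1, the mitochondrial sodium and calcium exchanger, had a log2 difference of -0.40 ± 0.06, and Sptlc2, a subunit of serine palmitoyltransferase at the start of sphingolipid synthesis, one of -0.30 ± 0.05. Dtx2, a Deltex ubiquitin ligase, Hmgn3, a nucleosome-binding protein, Optn, an autophagy receptor, and Litaf, an endosomal protein named for its induction by LPS, had log2 differences of -0.51, -0.60, -0.33 and -0.27. Of the 7 called genes with a difference of at least 2-fold, 4 lay under 1 CPM, where a few reads decide the value: Gpr35, Wdr90 (1.52 ± 0.29), D3Ertd751e (1.06 ± 0.28) and Map2k3os (-1.47 ± 0.35). Wdr90 and D3Ertd751e were called in no thinned draw. Map2k3os, named as the opposite-strand neighbour of Map2k3 and counted with a strand setting not given in the sources used here, was called in 1 of 3 draws. Without WT replicate 3 its adjusted p was 0.108, and that of D3Ertd751e was 0.22 without KO replicate 3.

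The main inflammatory products of LPS-treated macrophages were not called different between genotypes. Tnf stood at 2184, 2068, 2200 and 1894 CPM in WT and 2107, 2307, 2169 and 1552 CPM in KO, with overlapping groups and a log2 difference of -0.04 ± 0.21 (95% interval -0.48 to 0.41, adjusted p = 0.954). Il6 stood at 39.2, 27.9, 33.1 and 19.3 CPM in WT and 37.2, 33.4, 38.3 and 13.4 CPM in KO (log2 difference 0.04, interval -0.50 to 0.57, adjusted p = 0.962). Il12b, the shared subunit of interleukins 12 and 23, differed by 0.13 (interval -0.42 to 0.68). For all 3 cytokines the interval lay within 2-fold, which bounds the difference and does not show that the genotypes act alike. Il1b differed by -0.25 (interval -0.77 to 0.27) and the anti-inflammatory Il10 by -0.33 (interval -0.68 to 0.02). Acod1, which makes itaconate, reached 8873 to 10903 CPM in WT and 7851 to 10530 CPM in KO (log2 difference -0.07, interval -0.51 to 0.36).

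For other inflammatory genes the interval left room for a larger difference. Nos2, the inducible nitric oxide synthase, stood at 123, 142, 172 and 161 CPM in WT and 89.5, 139, 83.9 and 63.7 CPM in KO, and KO replicate 2 fell within the WT range. Its log2 difference of -0.67 ± 0.26 had an interval of -1.21 to -0.13 and an adjusted p of 0.172. The monocyte-attracting chemokine Ccl7 stood at 47.8, 58.2, 93.0 and 49.3 CPM in WT and 40.2, 24.2, 25.9 and 30.7 CPM in KO. Its groups did not overlap, and its adjusted p of 0.0505 for a log2 difference of -1.04 ± 0.28 lay just outside the threshold, with a range of 0.0344 to 0.249 over the alternatives. Ccl2 (-0.87 ± 0.32, adjusted p = 0.15), Ccl8 (-0.77 ± 0.23, adjusted p = 0.0758) and the interleukin 1 receptor antagonist Il1rn (-0.79 ± 0.27, adjusted p = 0.112) also had groups that did not overlap and were not called. Over all genes, the groups did not overlap for 9.58%, at any p. Among neutrophil-attracting chemokines, Cxcl1 (0.48 ± 0.29) and Cxcl3 (0.63 ± 0.27) had values on the other side of 0 and were not called.

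**Figure D4:**
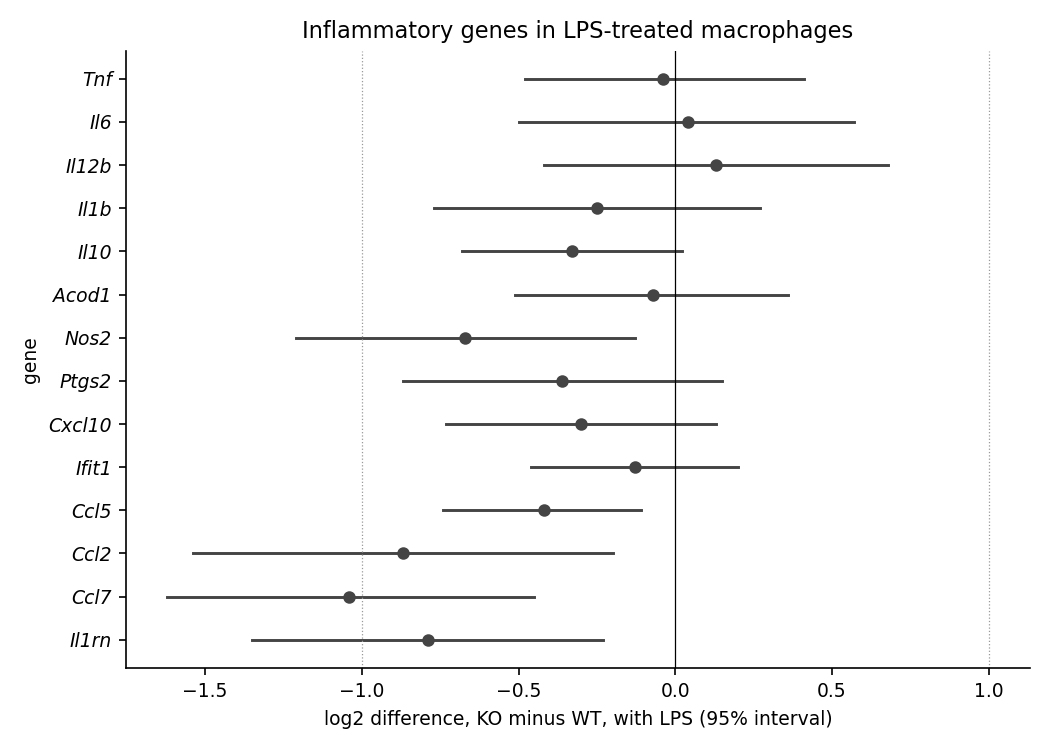
Log2 difference, KO minus WT with LPS, for 14 inflammatory genes, with points for the estimate and lines for its 95% interval; dotted lines mark a 2-fold difference either way. The intervals of Tnf, Il6 and Il12b span 0 and lie within 2-fold, those of Nos2, Ccl5, Ccl2, Ccl7 and Il1rn lie wholly below 0, and none of the 14 was called after adjustment over all genes.

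By group, pro-inflammatory cytokines had 1 called member of 15 measured, Il18, an interleukin 1 family cytokine (log2 difference -0.47 ± 0.12, adjusted p = 0.0292, and 0.13 without WT replicate 3, called in 2 of 3 thinned draws), and a median log2 difference of -0.25 beside -0.01 for all genes. Over all genes 2.85% were called, 2.16% lower, which is the share to set beside the counts of this and the following lists. CC chemokines had 0 of 11 called and a median of -0.42. CXC chemokines had 0 of 10 called and a median of 0.18. The anti-inflammatory regulators had 2 of 15 called, both lower: Dusp1, a phosphatase that switches off p38 and JNK, at 120, 145, 158 and 123 CPM in WT and 96.5, 77.8, 80.8 and 85.9 CPM in KO (log2 difference -0.68 ± 0.16, adjusted p = 0.0216), and Il4ra, the receptor chain for interleukins 4 and 13 (-0.29 ± 0.06, adjusted p = 0.0168). Their adjusted p was 0.108 without WT replicate 3 and 0.079 without KO replicate 3. Il18 and Il4ra also lost their calls with library totals alone. The mRNA-destabilising proteins Zfp36 (-0.31, adjusted p = 0.0967) and Zc3h12a (-0.25, adjusted p = 0.0768) were not called. Hdc, which makes histamine and counts here among small-molecule enzymes, stood at 47.1, 48.2, 49.5 and 44.0 CPM in WT and 37.0, 30.0, 30.3 and 31.2 CPM in KO (log2 difference -0.55 ± 0.13, adjusted p = 0.0221, and 0.101 without WT replicate 3). It was the 1 called gene of 11 for itaconate, nitric oxide, arginine, prostaglandin and related synthesis, a list with a median of -0.15.

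All 33 measured interferon-stimulated genes had a value below 0, and 1 of them (3.03%) was called, against 2.85% of all genes. Isg20, an antiviral exonuclease, stood at 174, 203, 224 and 203 CPM in WT and 136, 147, 115 and 139 CPM in KO (log2 difference -0.59 ± 0.16, adjusted p = 0.0486, and 0.179 without WT replicate 3). It was called in 0 of 3 thinned draws and in 2 of the 8 fits with a library left out. It also lost its call with median-ratio factors and with library totals. The list's median was -0.25 with LPS and -0.28 in untreated cells, whose same-numbered libraries are not independent of those with LPS (correlations are given with the untreated comparison). With scaling by library totals the median was -0.17, 30 of 33 lay below 0 and none was called. Summed over the list, the WT libraries ran from 44355 CPM in replicate 1 to 56741 CPM in replicate 3. The KO libraries ran from 37034 CPM in replicate 3 to 45695 CPM in replicate 2, so these sums overlapped. The list's mean log2 level, centred per gene, was 1.64 to 1.91 in WT and 1.39 to 1.62 in KO, without overlap. Most lists overlapped on this measure, but others lay apart too. The anti-inflammatory regulators stood at 1.47 to 1.70 in WT and 1.23 to 1.43 in KO. The NADPH oxidase, inflammasome and death genes stood at 0.72 to 0.81 and 0.58 to 0.71, and the LPA genes, Gpr35 included, at 0.38 to 0.50 and 0.14 to 0.31. Cxcl10 (-0.30 ± 0.21), Ifit1 (-0.13 ± 0.16), Irf7 (-0.44 ± 0.17) and Bst2 (-0.42 ± 0.13) were not called.

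Transcripts of Toll-like receptor 4 and NF-kB signalling genes differed by little. Of 23 genes of the Toll-like receptor 4 pathway, Ticam1, which encodes the adaptor TRIF, was lower in KO (80.4 to 95.2 CPM in WT, 67.6 to 80.1 CPM in KO, log2 difference -0.31 ± 0.08, adjusted p = 0.041), and Map3k7, which encodes the kinase TAK1, was higher (63.6 to 69.0 CPM in WT, 73.6 to 81.3 CPM in KO, 0.19 ± 0.05, adjusted p = 0.0356). Without WT replicate 3 their adjusted p was 0.157 and 0.128, and Ticam1 also lost its call with library totals. Each was called in 1 of 3 thinned draws and in 2 of the 8 fits with a library left out. No NF-kB subunit or feedback gene was called among 22, with a median of -0.06 and the lowest value in Bcl3 (-0.35 ± 0.10, adjusted p = 0.0544). The p38 kinase gene Mapk14, on no fixed list and singled out after its value was seen, was higher at 332, 347, 356 and 388 CPM in KO against 301, 292, 298 and 309 CPM in WT (0.25 ± 0.06, adjusted p = 0.0339, and 0.116 without WT replicate 3, called in 2 of 3 thinned draws).

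Genes of intracellular signalling were among the small falls, and these too were picked out after their values were seen. Stat3, which carries interleukin 6 and 10 signals, stood at 420, 415, 452 and 418 CPM in WT and 359, 363, 335 and 333 CPM in KO (log2 difference -0.29 ± 0.06, adjusted p = 0.00662). Csk, the kinase that restrains Src family kinases, differed by -0.30 ± 0.05 (adjusted p = 0.00187), Inppl1, the inositol phosphatase SHIP2, by -0.34 ± 0.05 (adjusted p = 3.3e-04) and Sos1, an activator of RAS, by -0.38 ± 0.06 (adjusted p = 0.0027). These 4 were stable calls. Tyk2 (-0.24), Ifngr2 (-0.19), Grb2 (-0.18) and Pik3cd (-0.27), which encode a Janus kinase, an interferon gamma receptor chain, an adaptor and the delta catalytic subunit of PI3 kinase, were called with all libraries but not with library totals alone. Without WT replicate 3 the adjusted p of Tyk2 was 0.121, and without KO replicate 3 those of Ifngr2, Grb2 and Pik3cd were 0.0621, 0.076 and 0.0828. Thinned draws called Grb2 in 1 of 3 and Tyk2 and Ifngr2 in 2 of 3. Tlr3 (-0.42), Tlr7 (-0.29), Irf8 (-0.31) and Casp8 (-0.24) were also called lower, and of these Casp8 alone kept its call with library totals. Without WT replicate 3 their adjusted p was 0.202, 0.17, 0.206 and 0.111. Tlr3 was called in 0 of 3 thinned draws and Irf8 in 1, and each was called in 2 of the 8 fits with a library left out.

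Genes of G protein and cyclic AMP signalling, through which GPR35 signals, had 1 called member of 32 (3.12%, against 2.85% of all genes), Arrb1, and a median of 0.02. Gna13, which encodes the G13 alpha subunit, stood at 372 to 410 CPM in WT and 318 to 362 CPM in KO without overlap (-0.18 ± 0.05, adjusted p = 0.0577), and Rgs14, which shortens inhibitory G protein signals, differed by -0.41 ± 0.12 (adjusted p = 0.0552) with overlap. Neither was called. Among 15 measured LPA receptor and LPA metabolism genes Gpr35 was the 1 called gene, and the median was -0.02.

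Glycolysis and hypoxia-response genes held 2 called members of 27 (7.41%, against 2.85% of all genes), with a median of 0.01. Pfkfb3, which makes the glycolytic activator fructose 2,6-bisphosphate, stood at 218, 210, 235 and 214 CPM in WT and 158, 146, 132 and 161 CPM in KO. The groups lay far apart relative to their spread (log2 difference -0.55 ± 0.07, adjusted p = 3.2e-04). Hk1, a hexokinase, stood at 194, 187, 204 and 190 CPM in WT and 153, 168, 156 and 156 CPM in KO (-0.29 ± 0.05, adjusted p = 0.00346). Both were stable calls. No member was called among 28 sterol and fatty acid synthesis genes (median -0.17), 15 LXR target genes (-0.10), 20 NRF2 target genes (0.14), 20 stress response genes (-0.05), 17 actin and SRF or YAP target genes (-0.09), 17 NADPH oxidase, inflammasome and death genes (-0.13) or 22 antigen presentation genes (-0.20). The sterol efflux pump Abca1, at 0.18 ± 0.06 (adjusted p = 0.0876), had groups that did not overlap, as 9.58% of all genes did.

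Cell cycle genes varied by library, while the summed level of stromal and endothelial markers was lower in each KO library than in any WT library. Of 32 cell cycle genes Cdt1 was the 1 called, lower in KO, while 5 had values below 0 in all and the median was 0.29 with LPS and 0.23 in untreated cells. The list's mean log2 level, centred per gene, ran from -1.10 to -0.63 in WT and from -1.42 in KO replicate 2 to -0.14 in KO replicate 4. E2f1 (0.29, adjusted p = 0.0705) and Mcm6 (-0.23, adjusted p = 0.166) were not called. Neutrophil and granulocyte precursor markers, 15 measured and none called, had a median of 0.28 and summed to 645 to 852 CPM in WT and 565 to 910 CPM in KO, lowest in KO replicate 2. Stromal and endothelial markers, 7 measured of 14 listed and none called, had a median of -0.92, with values from -2.49 to 0.09. Of the 7, 5 had a value below 0 and 5 an unadjusted p below 0.05, which 1994 of all genes (17.2%) had. The median of the 7 was -0.37 in untreated cells. They summed to 210, 170, 175 and 181 CPM in WT and 133, 142, 123 and 166 CPM in KO, without overlap. The sums of the immediate-early, LXR target and actin lists were also lower in every KO library than in any WT library, while most lists overlapped. Col1a2 stood at 5.40, 0.740, 0.673 and 1.34 CPM in WT and 0.628, 0.141, 0 and 0.706 CPM in KO. In bulk libraries fewer cells of a type and less RNA per cell cannot be told apart, and the part of these markers in the called differences was not tested. Fcgr1, the high-affinity IgG receptor, was the 1 called gene of 20 macrophage identity genes, lower in KO (-0.53 ± 0.14, adjusted p = 0.0396, and 0.168 without WT replicate 3, called in 2 of 3 thinned draws). It was called in 2 of the 8 fits with a library left out.

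Of the remaining lists, immediate-early genes had 1 of 23 called, Dusp1, and a median of -0.22, and alternative activation genes had 1 of 14 called, Il4ra, and a median of 0.01. No marker was called among 9 monocyte, 3 dendritic cell, 2 lymphoid, 3 erythroid or megakaryocyte and 8 osteoclast genes. The 3 measured dendritic cell genes, of 12 listed, had a median of -0.17, and their mean log2 level, centred per gene, was 0.15 to 0.24 in WT and -0.30 to 0.00 in KO, while their summed CPM overlapped. Hdc was also the 1 measured gene of the mast cell and basophil list. Of 3 C57BL/6 substrain check genes, Nlrp12 was not measured, and Nnt and Cyfip2 were not called (0.05 and -0.17). These transcript levels do not settle the substrain of either genotype.

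Whether the genotype difference was particular to LPS was tested as the difference of KO minus WT between LPS and untreated cells. No gene of 11590 (0%) was called in edgeR's test, 698 had an unadjusted p below 0.05, and DESeq2 called 17. KO against WT in untreated cells called 1 gene (0.00863%), Gpr35, with 314 at an unadjusted p below 0.05. Most genes called with LPS had the same sign and a smaller value in the untreated libraries. The genes were chosen by their LPS values, so the choice alone favours smaller values in other libraries. The smaller size therefore does not show that LPS widened the difference. Of the 250 genes lower with LPS, 210 (84.0%) had a value below 0 without treatment, against 48.8% of all genes, with a median of -0.06. Of the 80 genes higher with LPS, 66 (82.5%) had a value above 0, against 51.2%, with a median of 0.05. These libraries are other than the LPS ones but not independent of them. Deviations from the group mean in same-numbered LPS and untreated libraries correlated at 0.20 to 0.51 in KO and 0.09 to 0.26 in WT, over genes. Depth and lanes differ between the genotypes in the same way. Pfkfb3 differed by -0.21 ± 0.07 without treatment and -0.55 ± 0.07 with LPS, Sema4c by -0.14 ± 0.11 and -0.78 ± 0.09, and Peg13 by 0.11 ± 0.07 and 0.65 ± 0.08.

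**Figure D5:**
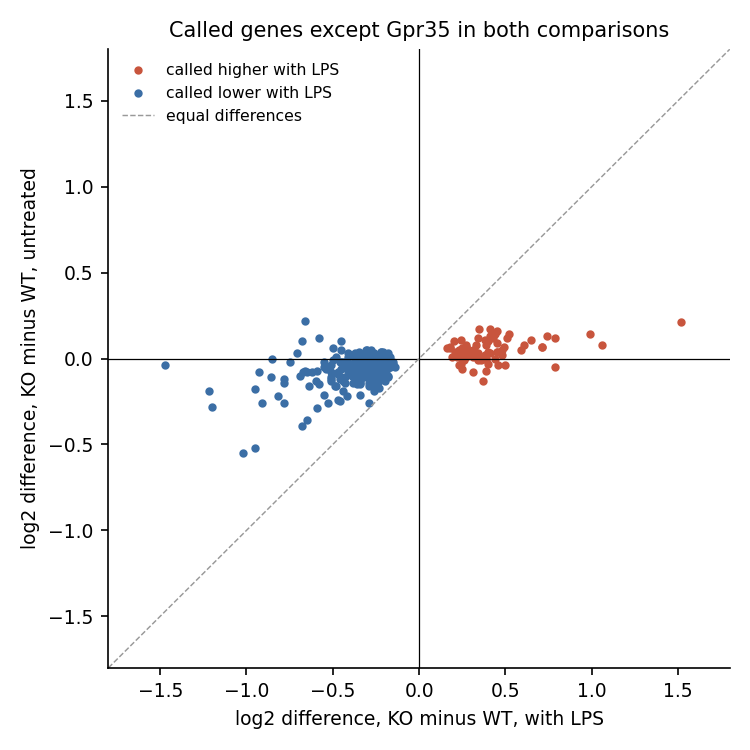
Log2 difference, KO minus WT, in untreated cells against that with LPS, for the called genes except Gpr35; red points were called higher with LPS and blue points lower. Most points lie on the same side of 0 in both comparisons and nearer to 0 without treatment, where the medians are 0.05 and -0.06. The genes were chosen by their LPS values, which alone favours points nearer to 0 without treatment.

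Against the genotype difference with LPA the contrast was wide. KO against WT with LPA called 5830 genes (50.3%), of which 48.4% were higher in KO, or 67.4% with library totals. The difference of the genotype effect between LPS and LPA was called for 2736 genes (23.6%), 1585 of them (13.7%) with a higher value under LPS and 1151 (9.93%) with a lower one. Tnf differed between genotypes by -0.04 with LPS and -2.42 with LPA, Acod1 by -0.07 and -2.94, Cxcl10 by -0.30 and -2.46, and Ifit1 by -0.13 and -1.92. Lipg was lower in KO with both agents, by -1.22 with LPS and -3.52 with LPA. Cdt1, by contrast, differed by -0.86 with LPS and 0.38 with LPA (adjusted p = 0.0147), and Stat3 by -0.29 and 0.20 (adjusted p = 0.00567). Of the 250 genes called lower with LPS, 120 (48.0%) were called lower with LPA, where 25.9% of all genes were, and 31 (12.4%) were called higher, where 24.4% of all genes were. Of the 80 called higher, 41 (51.2%) were called higher with LPA and 10 (12.5%) lower, against the same 24.4% and 25.9%.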

How the data were processed

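The deposited table holds counts of reads per gene for 24 libraries, used here as the authors deposited them, with a gene length column. Per the labels' protocols, libraries were made with a stranded poly-A kit and read as paired 51-base reads. Per the submitters' processing notes, STAR 2.5.2a and the mm10 build were used. For the counting tool, strand setting, annotation and the filter behind the 11590 genes, the sources used here give nothing. Positions and promoters came from RefSeq tables of GRCm38.p6, the same assembly as mm10.

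Genes were tested with edgeR 4.0.16 in R 4.3.3 (robust quasi-likelihood F test, TMM factors). A single model fitted 6 group means to 24 libraries and left 18 residual degrees of freedom. It treats the libraries as independent, although same-numbered LPS and untreated libraries of a genotype deviated together (correlations of 0.09 to 0.51). No gene was removed by filterByExpr. Calls are at a Benjamini-Hochberg adjusted p below 0.05 over all genes. The SE was taken from the F statistic. The code was tested on simulated data. Chi-square per degree of freedom between replicates of the 2 LPS groups was 6.07 to 31.4, so no pair agreed within sampling noise.

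Named genes were Gpr35, 11 inflammatory genes, the 12 largest called rises and falls with a mean of at least 2 CPM and up to 4 genes of each list by p. Genes outside the rule are named as such. The comparison, the lists and the rule were chosen with earlier results of these data known. Alternatives were DESeq2 1.42.0, median-ratio factors, library totals, no filter, at least 50 counts in 4 libraries, thinning to the smallest library in 3 draws, only the compared groups, a replicate term and leaving out each library.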

Additional observations from a re-analysis of the deposited data

Results flagged for a closer look

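In 11 of 190 groups of 4 libraries examined, 1 library lay far from the other 3, where chance gives about 1 in 20. These were Ptgs2 in KO replicate 4 (360 CPM), Itpr1 in KO replicate 4 (69.9 CPM), Slc28a2b in KO replicate 3 (27.2 CPM), Map3k7 in KO replicate 2 (81.3 CPM) and Abca1 in KO replicate 2 (1140 CPM). In WT they were Nup43 (2.42 CPM), Ankrd44 (88.2 CPM), Slc9a9 (50.1 CPM) and Col1a2 (5.40 CPM) in replicate 1, Stat3 in replicate 3 (452 CPM) and Sos1 in replicate 4 (86.5 CPM). Without WT replicate 1 the log2 difference of Col1a2 was -1.34 in place of -2.49.

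The KO minus WT difference itself differed between LPS and LPA (edgeR quasi-likelihood test of the difference of differences, adjusted p below 0.05 over all genes) for 40 of the 95 genes followed. Over all genes the same test called 2736 of 11590 (23.6%). Many of the 95 were chosen by their values with LPS or as inflammatory genes, so their count is not a result about them. On the log2 scale, LPS minus LPA, the value was higher under LPS for Acod1 (2.87), Tnf (2.38), Cxcl1 (2.37), Lipg (2.30), Cxcl10 (2.15), Ifit1 (1.79), Nos2 (1.59), Isg20 (1.22), Ccl5 (0.93), Mturn (0.89), Hdc (0.73), Taf9b (0.63), Tbc1d8b (0.59), Mapk14 (0.50), Slc28a2 (0.45), Peg13 (0.43), Arrb1 (0.42), Nuak1 (0.41), Mmgt1 (0.33) and Pfkfb3 (0.32). It was lower under LPS for Col1a1 (-3.24), Col1a2 (-3.05), Map2k3os (-1.42), Cdt1 (-1.24), Irf2bpl (-1.20), Prokr1 (-1.02), Bbs10 (-1.0), Slc8b1 (-0.66), Sema4c (-0.62), Irf8 (-0.62), Litaf (-0.59), Dcakd (-0.57), Il4ra (-0.55), Stat3 (-0.49), Inppl1 (-0.38), Mcm6 (-0.35), Csk (-0.34), Sos1 (-0.25), Sptlc2 (-0.21) and Grb2 (-0.20).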

How the results depend on the processing

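The count of 330 genes called between KO and WT with LPS was 581 with DESeq2, 212 and 209 in 2 of the 3 thinned draws, and 131 with only the 8 compared libraries, a fit with fewer samples, and ran from 65 to 577 over single libraries left out. Of the 24 largest called differences with at least 2 CPM, 15 were called with only the compared libraries and 10 to 22 with a library left out. Same-numbered WT and KO libraries with LPS had deviations correlated at -0.19 to -0.00. These correlations do not settle whether such libraries share more than a number. With a replicate block, each time fitted to only the compared groups, 0 of the 330 genes and 0 of the 24 were called. The same block called 4204 genes with LPA and 2346 for the difference between LPS and LPA. The difference between LPS and untreated cells called 17 genes with DESeq2 and 0 to 1 with a library left out. The cause of these changes was not tested. Over 1701 comparisons of a gene's value with an alternative, 298 lost a call, 25 gained one and none changed sign while called. Of 64 called genes named, Gpr35 alone kept its call in all 15 alternatives that gave it an adjusted p. DESeq2, the block and the fit of only the compared libraries gave it none. At 15167683 to 18204622 counts per KO library, differences in genes under 1 CPM rest on few reads.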
